A study of Homo sapiens with 18 samples.

Results

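The replication-dependent histone genes were followed in 18 RNA-sequencing libraries of 3 human pancreatic ductal adenocarcinoma cell lines, SUIT2, COLO357 and PANC1. They were taken as the protein-coding Ensembl identifiers whose GENCODE v29 name starts with HIST1H, HIST2H, HIST3H or HIST4H and whose mean over the 18 libraries was at least 0.5 CPM (counts scaled to the gene total of the library). GENCODE v29 has 71 such genes, of which 39 were among the 63677 identifiers of the count tables; the other 32 were not analysed here. The level minimum left 27 genes: 5 of class H1, 6 of H2A, 9 of H2B, 3 of H3 and 4 of H4. The HIST1 cluster on chromosome 6 held 19 of them, chromosome 1 held 5 HIST2 and 2 HIST3 genes, and HIST4H4 lies on chromosome 12. Each line had 2 libraries with small interfering RNAs (siRNAs) against KMT2D (siRNA1 and siRNA2), 3 with siRNAs against KMT2C (siRNA1, siRNA2 and siRNA3) and 1 with a control siRNA, all collected 48 h after transfection. KMT2D and KMT2C encode enzymes that methylate lysine 4 of histone H3, chiefly at enhancers. No label says that the libraries of a group came from separate cultures, so each p-value measures only the spread between these libraries, and each line is 1 cell line.

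Replication-dependent histone genes supply the histones that package newly copied DNA. Histones H2A, H2B, H3 and H4 form the nucleosome core, and the linker histone H1 binds the DNA between cores. Their genes are transcribed mainly in S phase, and most of their mRNAs end in a conserved stem-loop bound by the protein SLBP in place of a poly(A) tail, although several of these genes can also give polyadenylated transcripts. Ribosome-depleted total RNA, as used here, keeps both kinds.

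The stem-loop marks the histone-type 3′ end where an annotated transcript reaches it. For each of the 4 versions found, 1 example is given, read from GENCODE v29 transcripts (GRCh38). It has 5 bases on each side and the 16 bases of the stem-loop in capitals.
HIST2H2BE: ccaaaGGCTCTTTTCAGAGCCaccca
HIST1H4H: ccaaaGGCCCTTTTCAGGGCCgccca
HIST1H2BC: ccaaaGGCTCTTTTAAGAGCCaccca
HIST1H2AG: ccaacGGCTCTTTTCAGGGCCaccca
A stem-loop was found in 14 of the 27 genes. The version of HIST2H2BE was held by 8 of the 27 genes, all of class H2A or H2B. It is not limited to these classes, because the H3 genes HIST2H3A and HIST2H3C, below the level minimum, hold it too. The 3 H4 genes with a stem-loop (HIST1H4H, HIST1H4J and HIST4H4) shared a version of their own. HIST1H2BC and HIST1H2BD shared the third, which the H3 gene HIST3H3, below the minimum, also holds. HIST1H2AG alone had the fourth. Of the 13 genes without a match, 9 have annotated transcripts that end at the stop codon, so that the stretch was not in the sequence searched. In 10 genes an annotated transcript runs 116 to 1917 bases past the stem-loop.

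The promoters show which known histone gene elements the control regions hold. The RefSeq table (GRCh38.p14), which gives 250 bases before and 50 after a gene's start, matched 25 of the 27 genes (not HIST1H3J or HIST1H4C). Those printed belong to the 2 genes in which every KMT2C library stood above every KMT2D library of its line, and to HIST1H4H, whose window held none of the motifs searched. Capitals mark the core promoter motif TATAAA, the element CCAAT, the octamer ATGCAAAT and the H1 gene element AAACACA, each searched on both strands.
HIST2H2AC, chr1:149886668-149886967, plus strand: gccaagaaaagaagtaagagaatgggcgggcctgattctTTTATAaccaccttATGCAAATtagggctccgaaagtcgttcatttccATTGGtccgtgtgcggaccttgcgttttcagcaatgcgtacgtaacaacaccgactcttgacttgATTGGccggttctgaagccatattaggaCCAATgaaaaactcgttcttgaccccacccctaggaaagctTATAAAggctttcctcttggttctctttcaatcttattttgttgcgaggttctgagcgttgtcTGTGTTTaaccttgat
HIST1H1E, chr6:26156079-26156378, plus strand: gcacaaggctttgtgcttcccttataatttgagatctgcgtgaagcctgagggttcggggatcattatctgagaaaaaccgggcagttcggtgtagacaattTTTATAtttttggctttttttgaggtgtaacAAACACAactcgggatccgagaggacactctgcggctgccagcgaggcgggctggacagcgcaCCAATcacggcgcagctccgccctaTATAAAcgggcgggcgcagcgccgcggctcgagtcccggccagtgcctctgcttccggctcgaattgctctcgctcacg
HIST1H4H, chr6:26285485-26285784, minus strand: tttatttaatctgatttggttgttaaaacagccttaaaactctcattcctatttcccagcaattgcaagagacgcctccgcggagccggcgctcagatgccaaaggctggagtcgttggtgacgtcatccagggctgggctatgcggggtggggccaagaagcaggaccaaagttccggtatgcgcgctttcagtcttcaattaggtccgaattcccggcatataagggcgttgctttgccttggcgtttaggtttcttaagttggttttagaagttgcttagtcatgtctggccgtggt
A gene was counted as holding a motif where any of its windows did; HIST1H2BD, HIST1H2BK and HIST1H3D have 2 starts, and so 2 windows, in the table. TATAAA was held by 72.0% of the 25 histone genes and by 13.99% of all 27305 genes of the table. A match counted at any position of the window. The only TATAAA match began 250 bases before the start in HIST4H4 and 220 bases before it in HIST1H2BC. The share therefore does not give the genes with this motif at the core promoter position. CCAAT was in 88.0% against 39.72%, including every H1, H2A and H2B gene and 0 of 3 H4 genes. ATGCAAAT was in 40.0% against 2.19%, with 4 of 6 H2A, 5 of 9 H2B and 1 of 2 H3 genes and 0 of 5 H1 genes; the H3 gene is HIST1H3D, at 1 of its 2 starts. AAACACA was in 24.0% against 6.94%, with 5 of 5 H1 genes and 1 of 6 H2A genes. Divergent pairs such as HIST2H2AC with HIST2H2BE and HIST1H2AC with HIST1H2BC have overlapping windows, so their matches are not independent. A match of letters is a description and shows no binding.

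Gene counts per library ranged from 14205640 to 32115894. The targeted mRNAs checked the labels. In libraries transfected against it, KMT2D was at 34.9% and 63.0% of the line's control in SUIT2, 44.2% and 43.4% in COLO357 and 83.6% and 85.2% in PANC1, and the change was not called over the 3 lines (log2 fold change -0.83 ± 0.29 (SE), adjusted p = 0.2108, edgeR). KMT2C under its own siRNAs was at 42.5%, 67.2% and 62.2% of control in SUIT2, 49.7%, 63.2% and 86.6% in COLO357 and 65.3%, 122.8% and 73.0% in PANC1 (-0.58 ± 0.23, adjusted p = 0.4373). The library labelled PANC1 KMT2C siRNA2 therefore had more KMT2C than its control. Under KMT2C siRNA, KMT2D was at 97.4% to 394.6% of control, highest in that same library. Under KMT2D siRNA, KMT2C was at 94.3% to 275.3%. With KMT2C siRNA set against KMT2D siRNA, edgeR called 1 of the 2 mRNAs higher (KMT2D) and 1 lower (KMT2C). In that comparison 2.45% of all genes were higher and 2.72% lower. Summed epithelial markers (KRT8, KRT18, KRT19, EPCAM and CDH1) were at 788 to 6738 CPM over the 18 libraries, and 5 leukocyte markers summed to at most 9.95 CPM, with 3 of them below a mean of 0.1 CPM. The 3 endothelial markers summed to at most 4.84 CPM with KMT2D siRNA, 28.9 CPM with KMT2C siRNA and 6.12 CPM with control siRNA. The 6 fibroblast markers summed to 1.22 to 171 CPM with KMT2D siRNA, 2.51 to 153 CPM with KMT2C siRNA and 2.63 to 56.3 CPM with control siRNA. The part of these lists in the histone results was not tested.

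Summed over the 27 genes, histone mRNA was at 64.4% ± 17.2 of the line's control with KMT2D siRNA (SD, n = 6) and at 84.6% ± 7.50 with KMT2C siRNA (n = 9). In SUIT2 the KMT2D libraries had 4165 and 3137 CPM and the KMT2C libraries 5159, 4489 and 4520 CPM, against 5840 CPM in the control library. In COLO357 the KMT2D libraries had 4897 and 3302 CPM and the KMT2C libraries 5017, 4633 and 4666 CPM, against 5147 CPM in the control library. In PANC1 the KMT2D libraries had 2498 and 2330 CPM and the KMT2C libraries 4011, 3776 and 3623 CPM, against 4742 CPM in the control library. All 15 libraries with siRNA against KMT2D or KMT2C lay below the control of their line, and COLO357 KMT2D siRNA1 was the only KMT2D library above the lowest KMT2C library of its line. In bulk RNA, fewer cells in S phase and less histone mRNA per cell cannot be told apart.

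**Figure D1:**
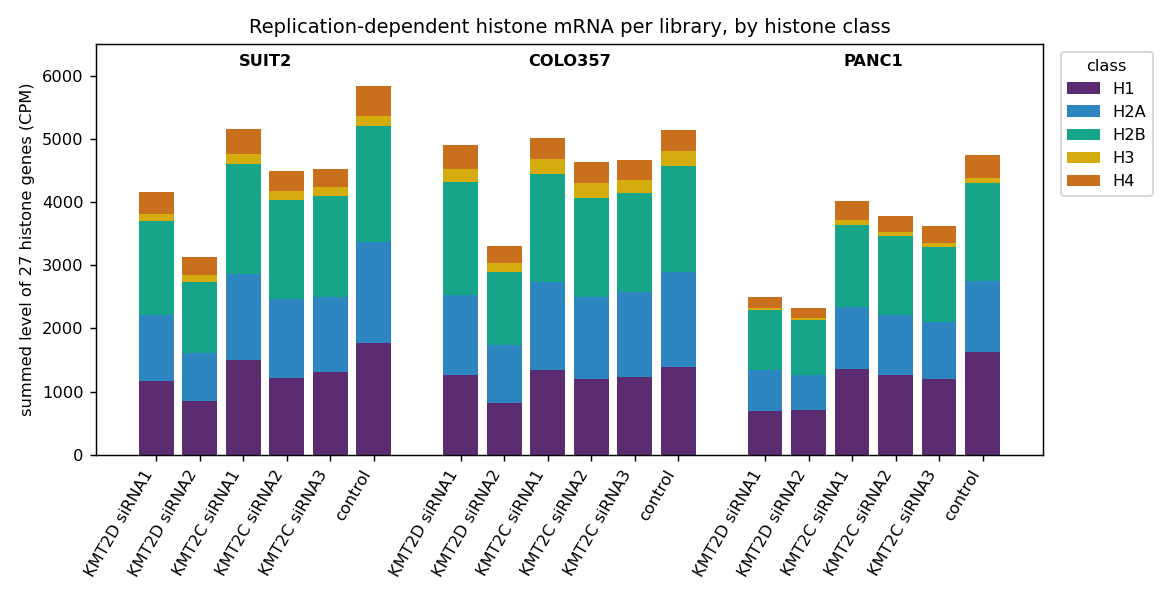
Summed CPM of the 27 histone genes in each of the 18 libraries, in 1 block per cell line (SUIT2, COLO357, PANC1) and stacked by class, with the KMT2D libraries first, then the KMT2C libraries and the control library. The sums run from 2330 CPM in PANC1 KMT2D siRNA2 to 5840 CPM in the SUIT2 control.

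Each of the 5 classes had a mean below control under both targets. With KMT2D siRNA, H1 mRNA was at 58.2% ± 18.4 of control, H2A at 61.3% ± 13.4, H3 at 64.1% ± 15.3, H4 at 69.2% ± 22.6 and H2B at 72.2% ± 18.8 (SD, n = 6 each). With KMT2C siRNA, H4 was at 80.6% ± 14.0, H1 at 81.2% ± 8.62, H2A at 84.7% ± 5.77, H2B at 88.5% ± 8.12 and H3 at 92.3% ± 8.26 (n = 9 each). The libraries of different classes overlapped throughout, and differences between classes were not tested.

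**Figure D2:**
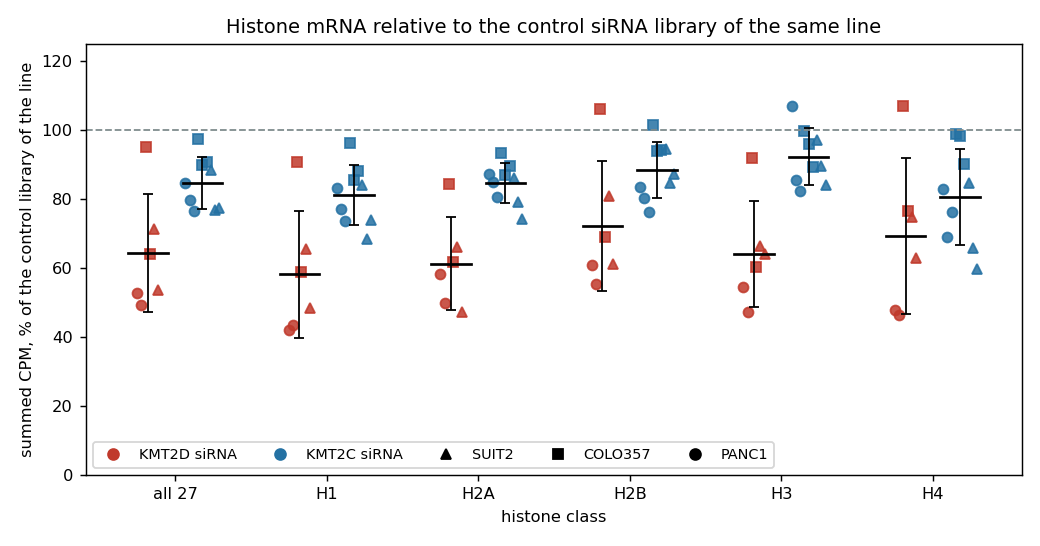
Summed mRNA of each histone class as a percentage of the control library of the same line, for the 6 KMT2D and the 9 KMT2C libraries. Points are libraries and bars are mean ± SD; H1 under KMT2D siRNA has the lowest mean, 58.2%.

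With KMT2D siRNA, 5 of the 27 genes fell and 0 rose, where 0.504% of the 21028 genes tested fell and 0.699% rose. The 5 were the H2A genes HIST2H2AC and HIST1H2AC, the linker histone genes HIST1H1E and HIST1H1C, and the H2B gene HIST1H2BC. The log2 fold change was below 0 for 27 of 27 genes, with a median of -0.62 and a range of -0.90 to -0.34, against a median of 0.018 over all genes tested. At an unadjusted p under 0.05 there were 22 genes, all lower, where 5.64% of all genes were lower at that p. The call was edgeR's quasi-likelihood F test over the 18 libraries with cell line as a term and Benjamini-Hochberg adjustment, at an adjusted p under 0.05. That fit treats the 3 libraries of 1 siRNA as independent. With the siRNA as a block in limma-voom, 1 gene, HIST2H2AC, was called lower (adjusted p = 0.009876; 0.114% of all genes), against 7 in limma-voom without the block (0.599%).

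HIST2H2AC encodes an H2A of the chromosome 1 cluster. In SUIT2 it had 353 and 271 CPM with KMT2D siRNA and 522, 559 and 519 CPM with KMT2C siRNA, against 638 CPM with control siRNA. In COLO357 it had 515 and 472 CPM with KMT2D siRNA and 649, 677 and 665 CPM with KMT2C siRNA, against 754 CPM with control siRNA. In PANC1 it had 188 and 172 CPM with KMT2D siRNA and 332, 371 and 315 CPM with KMT2C siRNA, against 379 CPM with control siRNA. The 3 groups did not overlap within any line: the KMT2D libraries were lowest, the KMT2C libraries next and the control highest. It fell by 0.90 on the log2 scale with KMT2D siRNA (SE 0.13, adjusted p = 0.0008914), which ranked 12 by p among all genes, and had -0.23 ± 0.12 with KMT2C siRNA (adjusted p = 0.5995). Of its 100-base windows 17.2% also occur in HIST2H2AA3 or HIST2H2AA4, so reads from them may be shared or left uncounted as not unique.

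HIST1H1E encodes a linker histone H1. In SUIT2 it had 216 and 215 CPM with KMT2D siRNA and 425, 404 and 369 CPM with KMT2C siRNA, against 387 CPM with control siRNA. In COLO357 it had 346 and 256 CPM with KMT2D siRNA and 363, 369 and 367 CPM with KMT2C siRNA, against 434 CPM with control siRNA. In PANC1 it had 172 and 206 CPM with KMT2D siRNA and 388, 447 and 320 CPM with KMT2C siRNA, against 434 CPM with control siRNA. All 6 KMT2D libraries lay below every other library of their line, while the KMT2C libraries lay on both sides of the control in SUIT2 and PANC1. It fell by 0.84 on the log2 scale with KMT2D siRNA (SE 0.16, adjusted p = 0.00871) and had -0.15 ± 0.15 with KMT2C siRNA (adjusted p = 0.8217).

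HIST1H1C, another H1 gene and 1 of those known to give polyadenylated transcripts too, was below control in all 15 libraries with siRNA against KMT2D or KMT2C. In SUIT2 it had 351 and 275 CPM with KMT2D siRNA and 424, 335 and 291 CPM with KMT2C siRNA, against 536 CPM with control siRNA. In COLO357 it had 351 and 240 CPM with KMT2D siRNA and 372, 325 and 323 CPM with KMT2C siRNA, against 407 CPM with control siRNA. In PANC1 it had 220 and 240 CPM with KMT2D siRNA and 362, 315 and 349 CPM with KMT2C siRNA, against 471 CPM with control siRNA. The KMT2D and KMT2C libraries overlapped in SUIT2 and COLO357 and were apart in PANC1. It fell by 0.76 with KMT2D siRNA (SE 0.15, adjusted p = 0.01427). With KMT2C siRNA it had -0.48 ± 0.14, the lowest p of the 27 genes in that comparison (unadjusted p = 0.003384, adjusted p = 0.2523).

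HIST1H2AC and HIST1H2BC are a divergent H2A and H2B pair whose promoter windows overlap. With KMT2D siRNA, HIST1H2AC had 92.9 and 85.6 CPM in SUIT2, 127 and 118 CPM in COLO357, and in PANC1 89.0 and 94.7 CPM, against control levels of 168 CPM in SUIT2, 152 CPM in COLO357, and in PANC1 147 CPM. With the same siRNAs, HIST1H2BC had 264 and 181 CPM in SUIT2, 228 and 175 CPM in COLO357, and in PANC1 202 and 158 CPM, against control levels of 323 CPM in SUIT2, 299.8 CPM in COLO357, and in PANC1 319 CPM. Every KMT2D library of both genes lay below its control. HIST1H2AC fell by 0.61 (SE 0.15, adjusted p = 0.04248) and HIST1H2BC by 0.65 (SE 0.15, adjusted p = 0.03672).

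By class, 2 of 5 H1 genes (median log2 -0.83), 2 of 6 H2A genes (-0.62), 1 of 9 H2B genes (-0.53), 0 of 3 H3 genes (-0.63) and 0 of 4 H4 genes (-0.53) were called lower with KMT2D siRNA. Close to the threshold stood the H1 gene HIST1H1B at -0.83 ± 0.21 (adjusted p = 0.05348), the H4 gene HIST1H4H at -0.62 ± 0.16 (adjusted p = 0.05372) and the H3 gene HIST1H3D at -0.63 ± 0.16 (adjusted p = 0.06065). HIST1H3D shares all of its 100-base windows with the overlapping gene AL031777.3, so its reads cannot be assigned to it alone. In all 6 KMT2D libraries 10 genes were below the control of their line, beside 6.34% of all genes tested, and 0 were above it in all 6 (6.99% of all genes). The 10 were HIST1H1C, HIST1H1D, HIST1H1E, HIST1H2AC, HIST1H2AG, HIST1H2BC, HIST1H3D, HIST1H3J, HIST1H4H and HIST2H2AC. The H2A gene HIST1H2AG had -0.60 ± 0.18 (adjusted p = 0.1272) and the H2B genes HIST1H2BK and HIST1H2BD had -0.34 ± 0.15 and -0.40 ± 0.16 (adjusted p = 0.366 and 0.2647). HIST1H3J had -0.73 ± 0.21 (adjusted p = 0.09596), HIST1H4C -0.58 ± 0.19 (adjusted p = 0.1799) and HIST2H2BE -0.47 ± 0.16 (adjusted p = 0.2108). Of the H2B genes not yet given, HIST1H2BL had -0.66, HIST1H2BJ -0.64, HIST2H2BF -0.54, HIST3H2BB -0.53 and HIST1H2BN -0.36. Among the others, the H1 genes HIST1H1D and HIST1H1A had -0.89 and -0.70, the H2A genes HIST1H2AI, HIST3H2A and HIST2H2AB -0.67, -0.63 and -0.38, the H3 gene HIST2H3D -0.52, and the H4 genes HIST4H4 and HIST1H4J -0.47 and -0.37. Their adjusted p-values ran from 0.07455 to 0.6729.

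**Figure D3:**
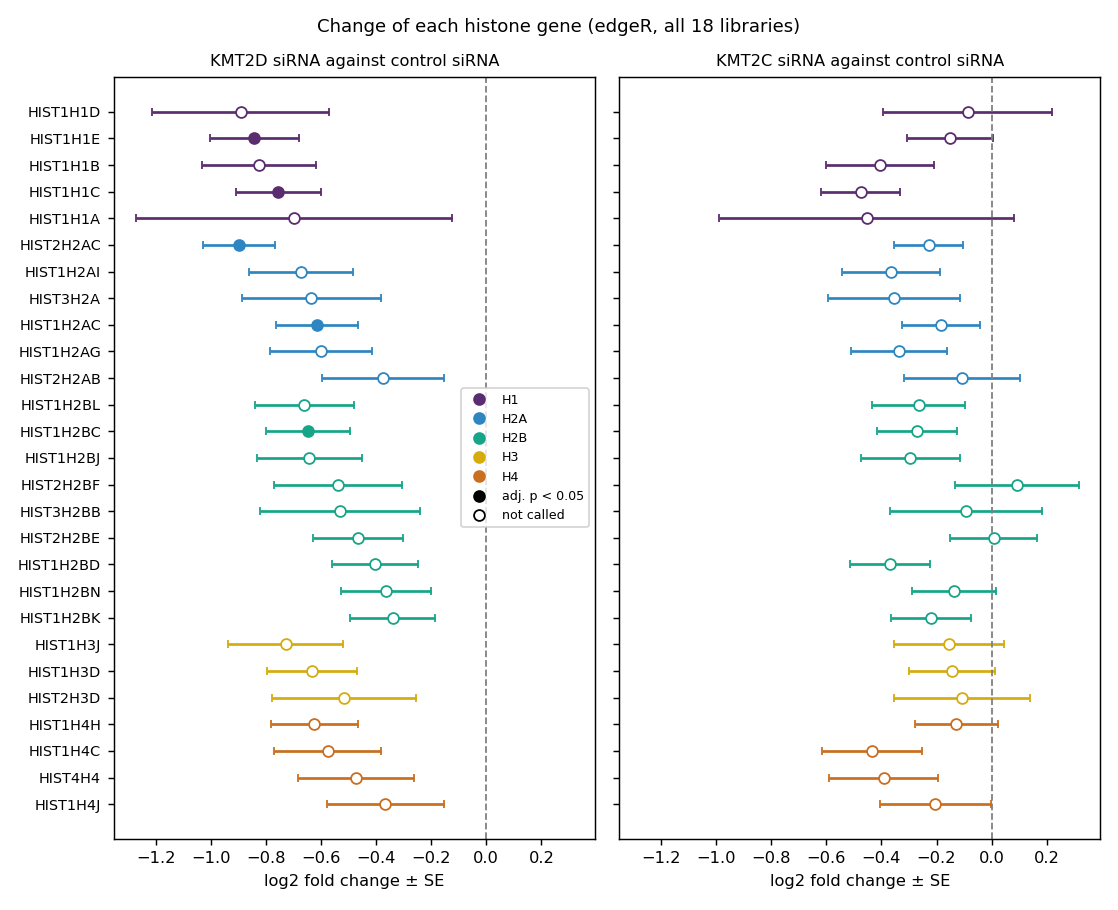
Log2 fold change with its SE of each of the 27 histone genes, grouped by class, for KMT2D siRNA (left) and KMT2C siRNA (right), each against control; filled points have an adjusted p under 0.05. All 27 KMT2D values lie between -0.90 and -0.34, and 5 of them are filled.

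The number called depended on single libraries. Without COLO357 KMT2D siRNA1 it was 14 (0.8% of all genes fell in the same fit). Without the SUIT2 or the PANC1 control it was 1 (0.0616% and 0.134%). Without PANC1 KMT2D siRNA1, PANC1 KMT2D siRNA2 or SUIT2 KMT2D siRNA2 it was 3 (0.331% to 0.383%). That COLO357 library had 11 of the 27 genes below control and 16 above, whereas 25 or 26 were below in each of the other 5 KMT2D libraries.

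The KMT2D siRNAs were also tested one by one. With siRNA1, 5 genes fell and 0 rose (2.18% of all genes fell and 1.84% rose), and the median was -0.48. With siRNA2, 16 fell and 0 rose (4.94% and 3.98% of all genes), and the median was -0.70. HIST2H2AC had -0.83 ± 0.15 with siRNA1 and -0.97 ± 0.15 with siRNA2. Set against each other, siRNA2 was lower than siRNA1 in 2 genes and higher in 0 (5.72% and 5.63% of all genes). The number lower was near what that share of all genes would give. By this count, a difference between the 2 siRNAs was not shown to be particular to the histone genes. The genes called were HIST1H2AG at -0.72 ± 0.13 (adjusted p = 0.0007983) and HIST1H1B at -0.69 ± 0.18 (adjusted p = 0.01548). HIST1H1B, an H1 gene, had 292, 244 and 213 CPM with siRNA2 in SUIT2, COLO357 and PANC1 and 554, 448 and 278 CPM with siRNA1 in the same lines, so that siRNA2 was lower in each line.

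**Figure D4:**
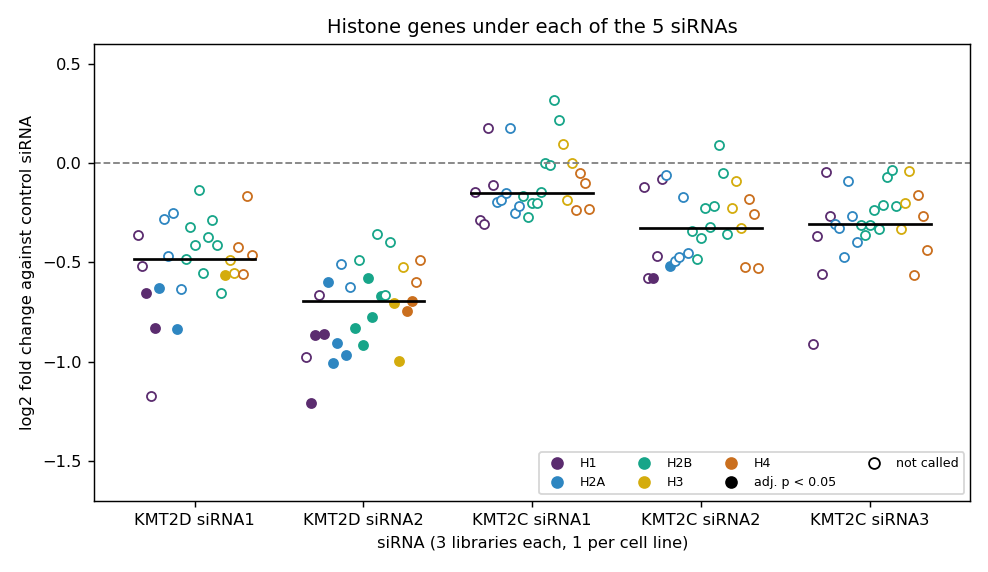
Log2 fold change of each of the 27 histone genes for each of the 5 siRNAs against control siRNA; the line in each column is the median. The medians are -0.48 and -0.70 for the 2 KMT2D siRNAs and -0.15, -0.33 and -0.31 for KMT2C siRNA1, siRNA2 and siRNA3.

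With KMT2C siRNA, 0 of the 27 genes were called by edgeR, and 0 by DESeq2 and by limma-voom; 0.0143% of all genes fell and 0.266% rose. The value was below 0 for 25 of 27 genes, with a median of -0.22 against 0.0035 over all genes. At an unadjusted p under 0.05 edgeR had 3 genes (9.18% of all genes): HIST1H1C, HIST1H2BD (-0.37 ± 0.15, adjusted p = 0.4331) and the H4 gene HIST1H4C (-0.43 ± 0.18, adjusted p = 0.4656). The smallest p of class H2A was that of HIST1H2AI (-0.36 ± 0.18, adjusted p = 0.5445) and of class H3 that of HIST1H3D (-0.14 ± 0.16, adjusted p = 0.8337). All 9 KMT2C libraries were below control in 5 genes (HIST1H1C, HIST1H2AG, HIST1H2BK, HIST1H4C and HIST2H2AC), beside 2.75% of all genes, and above it in 0 (4.16%). The KMT2D and KMT2C comparisons share the 3 control libraries. By siRNA, siRNA1 called 0 genes (0.504% of all genes fell) and had 0 at an unadjusted p under 0.05, where 11.2% of all genes were. siRNA3 called 0 (0.143%) and had 6 at that p, where 10.5% of all genes were. siRNA2 called 2 lower and 0 higher (3.14% and 2.67%) and had 9 at that p, where 19.6% of all genes were. The 2 called were HIST1H1C at -0.58 (adjusted p = 0.0309) and HIST1H2AG at -0.52 (adjusted p = 0.01935).

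The siRNAs against the 2 targets were then set against each other. With KMT2C siRNA, 8 of the 27 genes were higher than with KMT2D siRNA and 0 lower, where 2.45% of all genes were higher and 2.72% lower. All 27 values were above 0, with a median of 0.37 against -0.0076 over all genes. The 8 were HIST2H2AC (0.67 ± 0.10, adjusted p = 0.00162), HIST1H1E (0.69 ± 0.13, adjusted p = 0.00432), HIST1H4H (0.50 ± 0.12, adjusted p = 0.02305), HIST1H3D (0.49 ± 0.13, adjusted p = 0.02912), HIST2H2BE (0.47 ± 0.13, adjusted p = 0.03346), HIST1H2AC (0.43 ± 0.12, adjusted p = 0.03437), HIST1H3J (0.57 ± 0.16, adjusted p = 0.04432) and HIST2H2BF (0.63 ± 0.18, adjusted p = 0.04598). They cover all 5 classes: H1 and H4 with 1 gene each, and H2A, H2B and H3 with 2 each. With the siRNA as a block in limma-voom, 2 genes were called, HIST2H2AC and HIST1H1E (adjusted p = 0.008873 and 0.02253; 0.851% of all genes higher), against 10 without the block (3.89%).

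In HIST1H4H, which encodes histone H4, the KMT2C libraries had 92.5, 88.9 and 84.4 CPM in SUIT2, 91.7, 91.6 and 97.1 CPM in COLO357, and in PANC1 102, 86.5 and 83.9 CPM. The KMT2D libraries had 66.6 and 56.2 CPM in SUIT2, 94.0 and 70.4 CPM in COLO357, and in PANC1 46.8 and 50.8 CPM. The groups were apart in SUIT2 and PANC1, and COLO357 KMT2D siRNA1 lay among the KMT2C libraries of its line. In HIST2H2BE, an H2B gene, the KMT2C libraries had 266, 272 and 280 CPM in SUIT2, 327, 308 and 309 CPM in COLO357, and in PANC1 190, 250 and 164 CPM, and the KMT2D libraries 186 and 161 CPM in SUIT2, 343 and 201 CPM in COLO357, and in PANC1 141 and 113 CPM. Here too only COLO357 KMT2D siRNA1 was not below the KMT2C libraries of its line.

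Every KMT2C library was above every KMT2D library of its line in all 3 lines for 2 genes, HIST1H1E and HIST2H2AC, beside 1.58% of all genes. By line this held for 9 genes in SUIT2 (12.4% of all genes), 3 in COLO357 (15%) and 23 in PANC1 (11.5%). Without PANC1 KMT2D siRNA1 the number called in the test was 2 (1.58% of all genes were higher in the same fit). It was 4 (1.53% to 2.98%) without PANC1 KMT2D siRNA2, COLO357 KMT2D siRNA2, SUIT2 KMT2D siRNA1 or PANC1 KMT2C siRNA1, 5 (1.73% to 2.04%) without SUIT2 KMT2D siRNA2, PANC1 KMT2C siRNA2 or any 1 SUIT2 KMT2C library, and 12 (2.38%) without COLO357 KMT2D siRNA1. With the 4 KMT2C libraries that stand apart left out it was 3 (0.65%): these are PANC1 KMT2C siRNA2, for its KMT2C level, and COLO357 siRNA3, SUIT2 siRNA2 and SUIT2 siRNA3, in which 30.36%, 24.99% and 22.20% of read pairs fell in no annotated feature.

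The median log2 value with KMT2D siRNA was -0.55 in SUIT2, -0.28 in COLO357 and -1.03 in PANC1, and with KMT2C siRNA it was -0.27 in SUIT2, -0.05 in COLO357 and -0.26 in PANC1. Within single lines 0 genes were called for either target by edgeR, and 0.0% of all genes fell under KMT2D siRNA in PANC1 and in COLO357 and 0.019% in SUIT2; under KMT2C siRNA 0.00476% of all genes rose in SUIT2. Unadjusted p under 0.05 was reached by 8 genes in SUIT2, 1 in COLO357 (HIST2H2AC) and 20 in PANC1 for KMT2D, where 7.85%, 2.89% and 6.13% of all genes did. For KMT2C it was reached by 3 genes in SUIT2, 0 in COLO357 and 3 in PANC1, where 5.35%, 3.29% and 4.25% of all genes did. The test of a difference between lines called 0 of the 27 genes for either target (0.0% of all genes). Unadjusted, 4 genes had a p under 0.05 for KMT2D (HIST1H2BL, HIST1H3J, HIST1H4C and HIST2H2AB), where 2.26% of all genes did. For KMT2C it was 1 gene, HIST1H1A, where 2.23% of all genes did. HIST1H1A was also 1 of the 3 PANC1 genes for KMT2C. It had only 7 counts over the 6 PANC1 libraries, 5 of them in the control, and 0 in SUIT2. With KMT2D siRNA, PANC1 had the lowest median and the highest KMT2D mRNA relative to control. Whether these values are related was not tested, and the lines were not shown to differ.

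Genes of S phase were listed alongside, because histone mRNA is made then. Of 19 tested genes of DNA replication, 4 fell and 0 rose with KMT2D siRNA (edgeR), where 0.504% of all genes fell and 0.699% rose. POLA1 (-1.07 ± 0.21, adjusted p = 0.01183) and POLE (-0.69 ± 0.12, adjusted p = 0.004698) encode catalytic subunits of DNA polymerases. The others were CDC45 (-0.81 ± 0.17, adjusted p = 0.01501) of the replicative helicase and CLSPN (-0.80 ± 0.16, adjusted p = 0.01501) of the replication checkpoint. The list's median was -0.38, and 18 of 19 values were below 0. With KMT2C siRNA edgeR called 0 and the median was -0.10. In that test RRM2, RRM1, MCM7 and PCNA had an unadjusted p under 0.05, where 9.18% of all genes did. Against KMT2D siRNA, 5 were higher with KMT2C siRNA, where 2.45% of all genes were. They were the same 4 and MCM5 (0.48 ± 0.12, adjusted p = 0.02682).

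The summed S-phase list was at 73.6% ± 11.4 of control in the 6 KMT2D libraries (52.9% to 87.1%) and at 86.3% ± 7.51 in the 9 KMT2C libraries (77.8% to 97.3%). COLO357 KMT2D siRNA1, with the highest histone sum of the KMT2D libraries (95.2% of control), also had their highest S-phase sum, 87.1%. PANC1 KMT2D siRNA2 had both the lowest histone sum (49.1%) and the lowest S-phase sum (52.9%). Outside these ends the libraries were not in 1 order: SUIT2 KMT2D siRNA2 had 53.7% of histone mRNA and 76.3% of S-phase mRNA. The part of the S-phase genes in the histone result was not tested.

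Genes that act on histone genes, mRNA or protein were taken as further lists. Of 10 genes of histone gene transcription 0 were called with either siRNA target against control; the lowest p with KMT2D siRNA were those of E2F1, a transcription factor of S-phase genes (-0.48 ± 0.19, adjusted p = 0.2805), and CDK2 (-0.57 ± 0.25, adjusted p = 0.3356), the kinase that acts with cyclin E. Of 17 genes of 3′ end processing 0 were called, with NCBP1 of the cap-binding complex at -0.47 ± 0.13 (adjusted p = 0.09679) and CSTF3 at 0.33 ± 0.16 (adjusted p = 0.3994). Of 9 genes of histone mRNA decay and 12 histone chaperones 0 were called, with DCP2 at -0.83 ± 0.36 (adjusted p = 0.3479) and the CAF-1 subunits CHAF1B and CHAF1A at -0.63 ± 0.19 and -0.52 ± 0.17 (adjusted p = 0.1178 and 0.1465). KMT2C siRNA against KMT2D siRNA called E2F1 (0.57 ± 0.15, adjusted p = 0.02701), CHAF1A (0.49 ± 0.13, adjusted p = 0.0298), CHAF1B (0.53 ± 0.15, adjusted p = 0.03983) and LSM10 of the U7 particle (0.70 ± 0.20, adjusted p = 0.04441) higher, and CSTF3 (-0.44 ± 0.12, adjusted p = 0.03155) lower. In that comparison 2.45% of all genes were higher and 2.72% lower. Of the 6 histone genes known to give polyadenylated transcripts, 6 of 6 were below 0 with KMT2D siRNA (median -0.54). HIST1H1C, HIST1H2BC and HIST1H2AC, 3 of the 6, fell, where 0.504% of all genes did.

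The levels of the 27 genes spanned 224-fold per kb of coding sequence. HIST2H2AC was highest with 1190 ± 448 CPM per kb (SD, n = 18), then HIST1H2BK with 754 ± 118, HIST1H2AG with 687 ± 201, HIST1H2BC with 666 ± 153 and HIST1H2BD with 658 ± 166. The lowest were HIST3H2A with 40.3 ± 38.2, HIST1H4J with 30.3 ± 12.1 and HIST1H1A with 5.32 ± 8.07. In this order 3 of 26 steps between neighbours exceeded 1 SD of the higher gene. Reads were counted per gene and not per coding sequence. The exons span 0.381 kb in HIST1H2BK, all of it coding, but 2.25 kb in HIST1H2AG, whose coding sequence is 0.393 kb. Reads outside the coding sequence may thus raise some genes more than others, and the order may depend on the length used. In CPM not divided by length, HIST1H1A was the gene just inside the level minimum (3.45 CPM) and HIST1H2BA just outside it (0.377 CPM), followed by HIST1H1T (0.204 CPM). Of the 12 genes below the minimum, 4 were at 0 in all 18 libraries (HIST2H2AA4, HIST2H3PS2, HIST2H4A and HIST2H4B). Between 94.9% and 100.0% of their 100-base windows also occur in another gene, so a level of 0 does not show that they were silent. Read pairs whose alignment was not unique, 17.6% to 22.3% of all pairs, went to an entry that names no gene. Reads of these genes may be among them.

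The lines differed most in a few genes. COLO357 had 15 genes higher than PANC1 and 0 lower (34.7% of all genes higher, 32.1% lower), and SUIT2 had 13 higher and 0 lower (29.5% and 29.8%). SUIT2 against COLO357 had 4 higher and 9 lower (28.8% and 30.9%). By cluster, COLO357 was higher than PANC1 in 7 of 19 HIST1 genes (median log2 0.14), 5 of 5 HIST2 genes (1.08), 2 of 2 HIST3 genes (3.26) and in HIST4H4 (1.54). The counts against PANC1 include HIST2H3D, and those between COLO357 and either other line include HIST1H1A. Both genes passed the level minimum only through lines where they are high. Part of these counts therefore follows from how the genes were chosen, and they are given as a description.

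HIST2H3D, an H3 gene that shares 51.3% of its windows with copies, had 14.7 to 35.7 CPM in the 6 SUIT2 libraries and 21.0 to 39.4 CPM in the 6 COLO357 libraries, against at most 0.0449 CPM in PANC1. PANC1 had 3 counts over its 6 libraries, which gives ratios of 1278 (95% counting interval 437 to 6200) for SUIT2 and 1551 (530 to 7525) for COLO357. These intervals cover counting error only. HIST1H1A, the least abundant of the 5 H1 genes kept, had 0 counts in SUIT2, 1289 in COLO357 and 7 in PANC1. It passed the level minimum through COLO357 alone, and HIST2H3D through SUIT2 and COLO357, so their differences between lines follow in part from how the genes were chosen and are given as a description. The H2B gene HIST2H2BF was 3.92 ± 0.22 higher on the log2 scale in COLO357 than in PANC1 (adjusted p = 4.662e-13) and 2.89 ± 0.21 higher in SUIT2 than in PANC1 (adjusted p = 5.348e-11). The HIST3 pair HIST3H2A and HIST3H2BB was higher by 3.30 ± 0.23 and 3.23 ± 0.26 in COLO357 than in PANC1, and had -2.02 ± 0.22 and -1.58 ± 0.24 in SUIT2 against COLO357. In the same comparison HIST1H3D had -1.04 ± 0.14 and HIST2H2BF -1.03 ± 0.19. SUIT2 was also higher than PANC1 in HIST1H3J (1.73 ± 0.18), HIST4H4 (1.60 ± 0.18) and HIST1H4J (1.18 ± 0.18), of which HIST1H4J shares 77.7% of its windows with HIST1H4K and HIST1H3J 36.5% with HIST1H2AM.

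**Figure D5:**
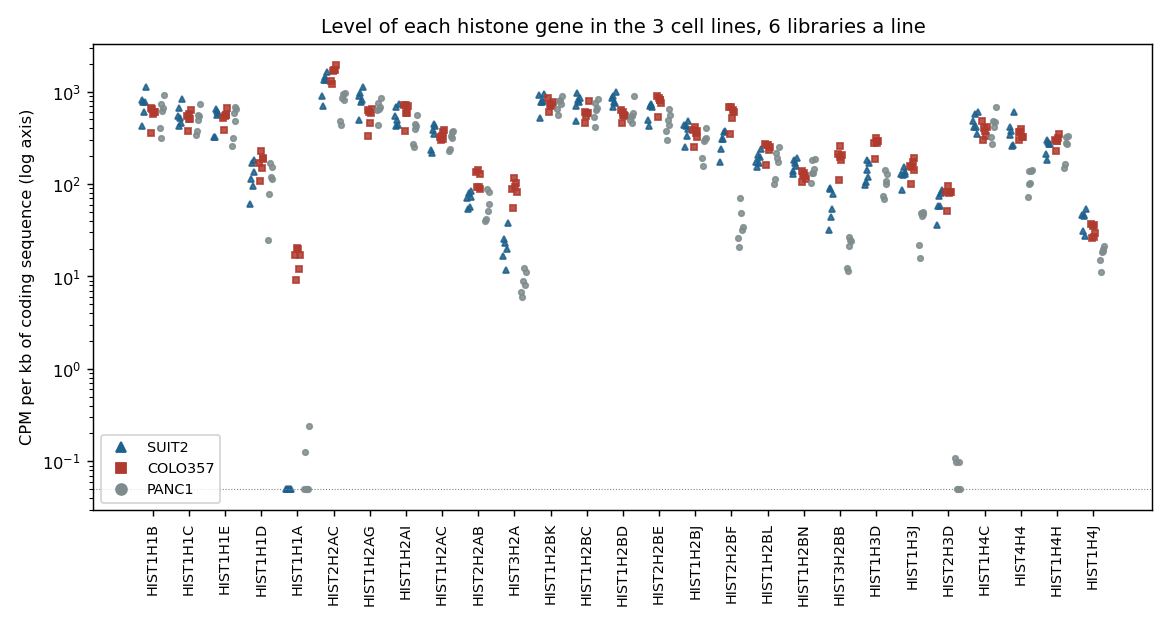
Level of each of the 27 histone genes in CPM per kb of coding sequence (log axis) in the libraries of SUIT2, COLO357 and PANC1; libraries at 0 are drawn on the dotted line at 0.05. HIST1H1A lies above the floor chiefly in COLO357, and HIST2H3D lies far lower in PANC1 than in the other lines.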

How the data were processed

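RNA was depleted of ribosomal RNA with Ribo-Zero Gold, made into TruSeq stranded libraries and read as 100 nt paired ends on 7 lanes, per the labels' protocols. The sources used here do not give the pool of each library, so no fit has a pool term. The submitters' processing notes name TopHat2, HTSeq, FastQC and edgeR and the build hg19. The values deposited by the authors are raw counts for each Ensembl gene. Neither strand nor overlap settings of HTSeq are stated there, so overlapping, antisense and near-identical genes may share or lose reads. The 5 closing entries that name no gene held 33.0% to 53.4% of read pairs and were left out.

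Names, transcripts and coding lengths came from GENCODE v29 (GRCh38) by identifier, with 82.5% of identifiers named; promoters came from RefSeq. CPM is the count scaled to the gene total of its library. Genes were tested with the quasi-likelihood F test of edgeR 4.0.16 (R 4.3.3), with TMM factors, the filter by expression (minimum count 10, minimum total 15) and Benjamini-Hochberg adjustment over 21028 genes. All 18 libraries entered 1 fit with cell line and target; SE was derived from the F statistic. A fit with a level per siRNA (10 residual degrees of freedom) and one with 9 groups of line by target (9 residual degrees of freedom) gave the siRNA and line values; in the last, a lone control is assumed to vary like other groups. DESeq2 1.42.0 and limma 3.58.1 were alternatives. Scripts were tested on simulated data.

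Given with their statistics are, by class, the 2 with the highest mean CPM and the one with the smallest p, all called genes, the 5 smallest p of each line comparison, and the polyadenylated list. The genes and lists were chosen with earlier results of these data known. Depth limits genes of few counts; exact 95% intervals cover counting error.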

Additional observations from a re-analysis of the deposited data

Results flagged for a closer look

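The 46 groups of 6 or 9 values were of named genes, of the class sums and of the sum of all 27 genes. Each value was a percentage of the line's control. By Dixon's criterion 3 groups held a library far from the others, where chance gives about 1 in 20. The sums contain the named genes, so the groups are not independent. COLO357 KMT2D siRNA1 had HIST1H3D at 95.57%, with the other 5 KMT2D libraries at 53.28% to 64.36%. The same library had HIST2H2BE at 118.67%, with the others at 53.29% to 71.83%. PANC1 KMT2C siRNA1 had HIST2H2BF at 208.79%, with the other 8 KMT2C libraries at 83.09% to 141.06%; its level there was 27.2 CPM against 13.02 CPM in the control.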

How the results depend on the processing

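For KMT2D siRNA against control, 5 genes were called lower; the count was 10 with every gene of at least 1 count tested, 8 with a mean of at least 1 CPM, 12 with DESeq2, 1 with only the groups compared, 16 without KMT2D siRNA1 and 3 without KMT2D siRNA2 or without KMT2C siRNA3. Leaving out each library in turn gave 1 to 14. For KMT2C against KMT2D siRNA, 8 were called; the count was 13 without KMT2D siRNA1, 2 without KMT2D siRNA2, 2 without KMT2C siRNA1, 4 without KMT2C siRNA2, 3 without KMT2C siRNA3, 3 without the 4 libraries that stand apart (chosen after seeing the data) and 2 to 12 with each library left out. KMT2C siRNA against control gave 0 under all 34 alternatives. Over all alternatives, COLO357 against PANC1 had 14 to 17 genes called, SUIT2 against PANC1 10 to 14 and SUIT2 against COLO357 10 to 14. The cause of these changes was not tested. The counts of this paragraph are given without the share of all genes called under each setting. A change in them is therefore not shown to be particular to the histone genes. HIST2H2AC was called in both siRNA comparisons that called it under all 32 alternatives tried for single genes. HIST1H1E was called under 32 of 32 against KMT2D siRNA and 28 of 32 against control; HIST1H1C, HIST1H2BC and HIST1H2AC kept their call against control under 27, 20 and 16.

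With the siRNA as a replicate block in limma-voom (consensus correlation 0.2108), the counts were 1 for KMT2D siRNA against control and 2 for KMT2C against KMT2D siRNA; limma-voom without the block, added after seeing the data, gave 7 for KMT2D siRNA against control and 10 for KMT2C against KMT2D siRNA. Deviations of the same siRNA in 2 lines correlated at 0.0564 to 0.3788, with 14 of 15 pairs over 0.1, so libraries of 1 siRNA vary together across lines. The 15 pairs are not independent. With 2 KMT2D libraries in a line their deviations mirror each other, so the KMT2D siRNA2 pairs repeat the values of the siRNA1 pairs. The same number under both targets had -0.02 to 0.1147 (6 pairs, 1 over 0.1), and these numbers do not pair the targets.

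Of 1920 values of 60 gene and comparison pairs, 1738 kept direction and side of the threshold, 119 lost and 44 gained a call, and 19 changed sign, none of them called. For KMT2C against KMT2D siRNA without KMT2D siRNA2, log2 values were -0.0560 in HIST1H2AG, -0.0441 in HIST1H2BD, -0.0875 in HIST1H2BK and -0.0173 in HIST1H4C; without KMT2C siRNA1, -0.0344 in HIST1H2BD and -0.0184 in HIST4H4. With each library left out, values ran from -0.0014 to 0.1011 in HIST1H2BD and from -0.0275 to 0.1408 in HIST4H4, below 0 only without PANC1 KMT2D siRNA1. HIST2H2BE with KMT2C siRNA against control had -0.0171 with every gene of at least 1 count, -0.0005 without KMT2D siRNA1, -0.0398 without KMT2C siRNA2, -0.0817 without the 4 libraries, and -0.0894 to 0.1167 with each library left out.

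Depth limits genes of few counts. Sequence shared with copies and overlapping genes limits HIST1H3D, HIST1H4J, HIST1H2AI, HIST2H3D and HIST1H3J most.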
